A study of Mus musculus with 8 samples.

Results

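The 10 genes described here encode subunits of the nucleosome remodelling and deacetylase (NuRD) complex, namely *Mbd2*, *Mbd3*, *Chd3*, *Chd4*, *Mta1*, *Mta2*, *Mta3*, *Gatad2a*, *Gatad2b* and *Rbbp7*. They were taken by symbol from a table of 18990 genes because NuRD is a reported barrier to reprogramming, and the rule used no measured value. All 10 were in the table, and all 10 were among the 13866 genes with a mean level of 1 CPM or more (CPM, reads scaled to library size) that were tested. The study asked how depletion of the corepressor *Ncor1* and of the reprogramming factor *Oct4* (*Pou5f1*) alters the first days of the conversion of mouse embryonic fibroblasts (MEFs) into induced pluripotent stem cells. Wild-type MEFs, labelled as strain BL6 and as reprogrammed at passage 2, carried lentiviruses with a tetracycline-inducible cassette of OCT4, SOX2, KLF4 and c-MYC (tet-STEMCCA) and with the transactivator rtTA, and received doxycycline in reprogramming medium (with chiron, an Alk5 inhibitor, ascorbic acid and LIF) in every group. Pooled siRNA at 40 nM against *Ncor1* (siNcor1) or *Oct4* (siOct4) was delivered with RNAiMAX, and ribosome-depleted total RNA (200 ng per library) was sequenced in paired-end mode at day 3 and at day 6. There were 2 biological replicates in each of the 4 groups, 8 libraries in all. Both siRNAs are knockdowns, so a difference between them does not measure the effect of either against cells with a non-targeting siRNA, which were not analysed here. The paper describes the *Oct4* knockdown as transient. The libraries hold the whole transduced population, so fewer cells of a type and less RNA per cell cannot be told apart.

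NuRD joins 2 enzymatic activities in a single assembly. The ATPases CHD3 and CHD4 slide nucleosomes, and the deacetylases HDAC1 and HDAC2 remove acetyl groups from histone tails. The MTA proteins form the scaffold that holds the deacetylases and the histone-binding proteins RBBP4 and RBBP7, while GATAD2A and GATAD2B bridge the methyl-CpG-binding domain proteins to the remodeller. Each place in the complex can be filled by paralogues, and MBD2 and MBD3 exclude each other. MBD2 binds methylated CpG sites, whereas mammalian MBD3 has largely lost that property. In embryonic stem cells MBD3-containing NuRD dampens pluripotency genes and is needed for lineage commitment, and loss of *Mbd3* or *Gatad2a* has been reported to ease reprogramming, although other work found that NuRD assists it. The complex differs from the NCOR1 corepressor, which acts through HDAC3.

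The libraries held 7735742 to 16445192 reads on genes, and 3 reads corresponded to 0.174 to 0.380 CPM. Values are log2-cpm, the log2 of CPM after scaling of the libraries, and the members had 236 to 10307 reads in a library. A single RNA, *Gm26917*, took 15.5% to 16.6% of the reads at day 3 and 20.3% to 29.1% at day 6. *Ncor1* was lower in siNcor1 than in siOct4-labelled libraries at day 3, at 7.08 and 7.20 against 7.82 and 7.94 (log2 difference 0.74, adjusted p = 0.0139), but not detectably at day 6 (−0.042, adjusted p = 0.815). Its mean was 7.14 at day 3 and 7.27 at day 6 in siNcor1, and 7.88 and 7.23 in siOct4-labelled libraries. *Pou5f1*, which the cassette also supplies, did not follow the labels: it stood at 7.53 and 7.62 in siOct4-labelled libraries and at 7.63 and 7.68 in siNcor1 at day 3 (−0.076, adjusted p = 0.941), and was higher in siOct4-labelled libraries at day 6 (9.45 and 8.97 against 7.55 and 7.32, log2 difference 1.77, adjusted p = 1.09e-04). The directions below therefore refer to the libraries by their labels. Differences were tested with limma on the log2 values of all 13866 genes, with Benjamini-Hochberg adjustment over all of them and a threshold of 0.05. SE is the standard error of a log2 difference, and intervals are 95% confidence intervals.

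The upstream sequences of 4 members are shown because 3 of them, *Chd4*, *Gatad2b* and *Mta1*, fell between day 3 and day 6 in at least 1 knockdown, while *Gatad2a* is the paralogue of *Gatad2b* that did not pass the test. Each is the 250 bases before the RefSeq start in build GRCm38.p6, written 5′ to 3′ on the strand of the gene, with CCAAT or its reverse complement ATTGG and GGGCGG or its reverse complement CCGCCC in capitals. They lie at chr6:125095731-125095980 on the plus strand for *Chd4*, chr3:90292931-90293180 on the plus strand for *Gatad2b*, chr12:113098028-113098277 on the plus strand for *Mta1* and chr8:69996385-69996634 on the minus strand for *Gatad2a*.
Chd4: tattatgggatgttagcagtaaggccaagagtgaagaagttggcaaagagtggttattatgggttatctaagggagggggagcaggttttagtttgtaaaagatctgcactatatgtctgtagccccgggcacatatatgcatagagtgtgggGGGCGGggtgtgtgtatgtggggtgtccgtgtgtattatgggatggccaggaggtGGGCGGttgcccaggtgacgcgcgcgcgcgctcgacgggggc
Gatad2b: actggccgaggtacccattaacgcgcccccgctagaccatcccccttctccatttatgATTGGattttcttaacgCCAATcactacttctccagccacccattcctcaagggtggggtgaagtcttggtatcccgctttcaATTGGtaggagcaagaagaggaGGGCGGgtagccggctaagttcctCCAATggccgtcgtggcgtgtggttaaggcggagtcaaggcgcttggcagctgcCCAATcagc
Mta1: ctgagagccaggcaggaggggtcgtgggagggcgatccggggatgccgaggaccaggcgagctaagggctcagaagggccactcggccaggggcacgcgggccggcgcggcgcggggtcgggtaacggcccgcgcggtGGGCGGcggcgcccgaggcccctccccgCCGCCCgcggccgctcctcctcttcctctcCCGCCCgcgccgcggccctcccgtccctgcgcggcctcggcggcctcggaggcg
Gatad2a: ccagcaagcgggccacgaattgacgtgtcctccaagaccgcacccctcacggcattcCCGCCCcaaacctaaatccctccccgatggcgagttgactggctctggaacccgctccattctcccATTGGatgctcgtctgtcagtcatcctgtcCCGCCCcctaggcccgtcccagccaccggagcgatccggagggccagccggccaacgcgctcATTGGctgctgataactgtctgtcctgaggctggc

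The *Mta1* window was the richest in CpG of these, with 39 CpG dinucleotides and 80.8% G+C, against 12 and 54% for *Chd4*, 13 and 56% for *Gatad2b* and 18 and 64% for *Gatad2a*. The median over all 32851 windows of the table was 6 CpG and 52.4% G+C. The *Gatad2b* window held 5 CCAAT boxes and the *Gatad2a* window 2, whereas *Chd4* and *Mta1* held none. Of 7 members with a RefSeq window that was used, 4 held CCAAT on either strand, which 33.8% of all windows did, and 7 of 7 held GGGCGG on either strand, which 32.7% of all windows did. The octamer ATGCAAAT, the form bound by OCT4, occurred in 1 of the 7 (*Mta2*) and in 1.6% of all windows, and the E-box CACGTG, the form bound by MYC, in 0 of the 7 and in 6.02% of all windows. The CCAAT and GGGCGG matches do not overlap. These matches are letters in a window, and no binding was measured here.

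Scaled to the summed exon length of each gene, *Rbbp7* had the highest mean over the 8 libraries, at 69.9 CPM per kb (44.7 to 83.7). It was followed by *Chd4* at 57.2 (42.3 to 68.1), *Mta1* at 54.1 (41.2 to 67.8), *Mbd3* at 52.7 (44.4 to 60.8) and *Chd3* at 52.3 (33.2 to 72.0). The ranges of these 5 genes overlapped, so their order is not separated by the spread over libraries. *Mta2* at 40.4 CPM per kb (35.9 to 46.9) and *Gatad2a* at 37.5 (30.3 to 43.1) overlapped each other and *Chd3*. *Mbd2* lay apart from its neighbours in this order at 18.0 CPM per kb (17.0 to 19.8). The lowest levels per kb were those of *Gatad2b* at 9.34 (6.16 to 11.8) and *Mta3* at 5.61 (4.39 to 7.05), whose ranges overlapped. In 3 families a single paralogue carried most of the mRNA per kb in all 8 libraries. *Mbd3* made up 70.4% to 78.2% of the sum with *Mbd2*, *Gatad2a* 75.9% to 87.3% of the sum with *Gatad2b*, and *Rbbp7* 69.5% to 76.7% of the sum with *Rbbp4*. These shares depend on the summed exon length, which counts every annotated exon. Before that scaling, *Rbbp7* and *Rbbp4* had geometric means of 240 and 231 CPM in siNcor1 at day 3. They had 204 and 194 CPM there at day 6. In siOct4-labelled libraries they had 202 and 195 CPM at day 3, and 162 and 202 CPM at day 6. Of the summed *Mta* mRNA, *Mta1* took 49.1% to 59.9%, *Mta2* 34.9% to 44.5% and *Mta3* 4.46% to 7.46%. *Chd4* and *Chd3* were close to equal, with *Chd4* at 48.6% to 57.1% of their sum.

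**Figure D1:**
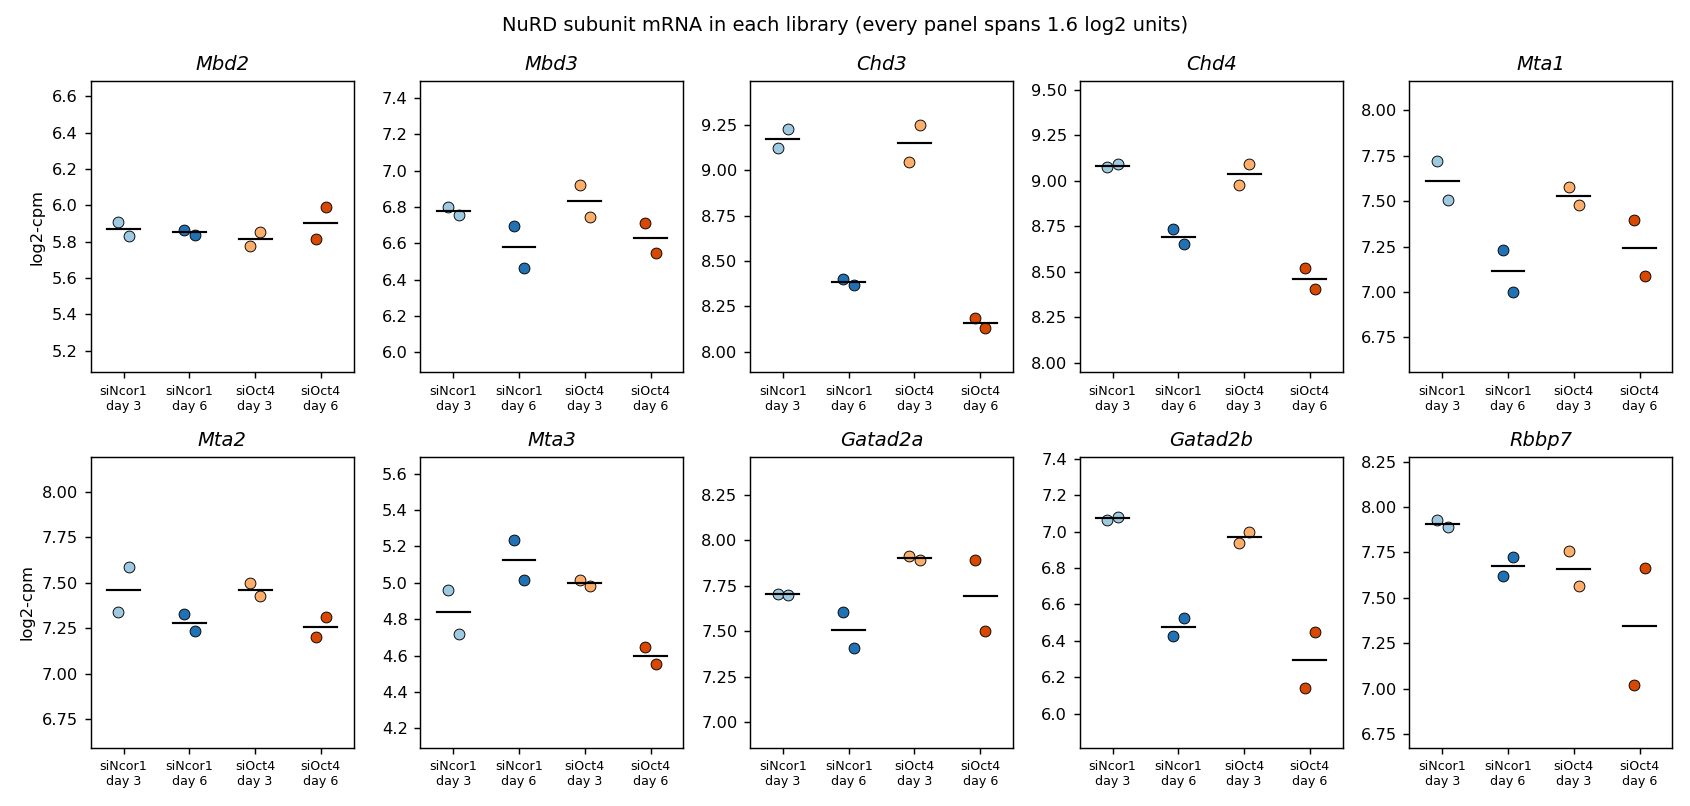
The log2-cpm of each of the 10 subunits is plotted for the 8 libraries, with 1 point per library, a bar at the mean of each group of 2, and an axis of 1.6 log2 units in every panel. *Chd3* lies between 9.05 and 9.25 at day 3 and between 8.13 and 8.40 at day 6, *Mta3* is lowest in the 2 libraries labelled siOct4 at day 6 (4.55 and 4.65), and *Mbd2* stays within 5.77 to 5.99.

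*Chd3*, an ATPase of the complex (ENSMUSG00000018474, mm10 chr11:69343273-69369406, minus strand), fell more than any other member between the days, by 42.1% in siNcor1 and by 49.6% in siOct4-labelled libraries. Its log2-cpm was 9.12 and 9.22 in siNcor1 and 9.05 and 9.25 in siOct4-labelled libraries at day 3, and 8.40 and 8.37 and then 8.18 and 8.13 at day 6. All 4 libraries of day 6 lay below all 4 of day 3. The log2 change was −0.79 in siNcor1 (SE 0.12, adjusted p = 0.000765, interval −1.06 to −0.52) and −0.99 in siOct4-labelled libraries (adjusted p = 5.50e-05, interval −1.26 to −0.72). The difference between these 2 changes was −0.20 (SE 0.18, adjusted p = 0.442, interval −0.59 to 0.18). At matched days the knockdowns were not told apart for *Chd3*: siOct4 minus siNcor1 was −0.025 at day 3 (interval −0.30 to 0.25, adjusted p = 0.975) and −0.23 at day 6 (interval −0.50 to 0.045, adjusted p = 0.188), although both libraries labelled siOct4 lay below both of siNcor1 at day 6.

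*Chd4*, the main remodelling ATPase of NuRD in most cells (ENSMUSG00000063870, mm10 chr6:125095981-125130591, plus strand), also fell between the days, by 23.7% in siNcor1 and by 32.8% in siOct4-labelled libraries. Its log2-cpm went from 9.08 and 9.09 to 8.74 and 8.65 in siNcor1, and from 8.98 and 9.09 to 8.52 and 8.40 in siOct4-labelled libraries. The 2 days did not overlap in either knockdown. The log2 changes were −0.39 (adjusted p = 0.0268, interval −0.65 to −0.12) and −0.57 (adjusted p = 0.00194, interval −0.84 to −0.31), and they differed by −0.18 (adjusted p = 0.475, interval −0.56 to 0.19). At day 6 siOct4-labelled libraries were again both lower, with a log2 difference of −0.23 that did not pass the test (adjusted p = 0.169, interval −0.50 to 0.033). The call of *Chd4* in siNcor1 rested on all 4 of its libraries: without replicate 1 or 2 of day 3 the change was −0.40 (adjusted p = 0.0951) and −0.38 (adjusted p = 0.124), and without replicate 1 or 2 of day 6 it was −0.43 (adjusted p = 0.0979) and −0.35 (adjusted p = 0.167). A stretch of 63 exon bases is shared with the annotated small RNA genes *Mir7045* and *Gm23751*, and reads there cannot be assigned to either gene alone.

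*Gatad2b* and *Gatad2a* encode the 2 forms of the p66 subunit, and the minor form fell while the major form did not pass the test. *Gatad2b* (ENSMUSG00000042390, mm10 chr3:90293178-90363407, plus strand) had a log2-cpm of 7.07 and 7.08 in siNcor1 and 6.94 and 7.0 in siOct4-labelled libraries at day 3. At day 6 it had 6.42 and 6.53, and 6.14 and 6.45. The days did not overlap in either knockdown. It fell by 33.9% in siNcor1 (log2 change −0.60, SE 0.13, adjusted p = 0.00384, interval −0.87 to −0.32) and by 37.3% in siOct4-labelled libraries (−0.67, adjusted p = 8.62e-04, interval −0.95 to −0.40), and the 2 changes differed by −0.077 (adjusted p = 0.795). *Gatad2a* (ENSMUSG00000036180, mm10 chr8:69907076-69996384, minus strand) ranged from 7.41 to 7.91. Its changes were −0.20 (adjusted p = 0.299) in siNcor1 and −0.21 (adjusted p = 0.233) in siOct4-labelled libraries. In the latter group at day 6 its replicates were 0.39 apart, at 7.89 and 7.50. Without the higher of these, replicate 1, the change in siOct4-labelled libraries was −0.40 and passed the test (adjusted p = 0.0209). Without the lower, replicate 2, the difference between the knockdowns at day 6 moved from 0.19 (adjusted p = 0.324) to 0.38 (adjusted p = 0.0365). At day 3 both libraries labelled siOct4 lay above both of siNcor1 for *Gatad2a*, by 0.20 (interval −0.10 to 0.50, adjusted p = 0.734). *Gatad2b* shares 247 exon bases with other annotated genes, among them the antisense gene *4930537H20Rik*, and the strand setting of the counting is not given in the sources used here.

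The 3 genes of the MTA scaffold proteins were called in different comparisons. *Mta1* (ENSMUSG00000021144, mm10 chr12:113098278-113137206, plus strand) fell by 29.1% between the days in siNcor1, *Mta2* (ENSMUSG00000071646, mm10 chr19:8941875-8952303, plus strand) passed no test, and *Mta3* (ENSMUSG00000055817, mm10 chr17:83706163-83821516, plus strand) was the only member called between the knockdowns. *Mta1* had a log2-cpm of 7.72 and 7.51 in siNcor1 at day 3 and 7.23 and 7.0 at day 6, without overlap (log2 change −0.50, SE 0.14, adjusted p = 0.0175, interval −0.80 to −0.19). In siOct4-labelled libraries it had 7.58 and 7.48 and then 7.40 and 7.09, also without overlap (−0.28, adjusted p = 0.112, interval −0.59 to 0.025). The 2 changes of *Mta1* differed by 0.21 (SE 0.20, adjusted p = 0.474, interval −0.22 to 0.65), so the data do not separate them. The call in siNcor1 was lost without replicate 1 of day 3 (−0.39, adjusted p = 0.135) or replicate 2 of day 6 (−0.38, adjusted p = 0.152), and a call in siOct4-labelled libraries was gained without replicate 1 of day 6 (−0.44, adjusted p = 0.0224). *Mta2* ranged from 7.20 to 7.59, with changes of −0.18 (adjusted p = 0.276) and −0.21 (adjusted p = 0.173) between the days and differences of 0.0016 (interval −0.27 to 0.27) and −0.025 (interval −0.29 to 0.24) between the knockdowns.

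*Mta3*, the least abundant member and the MTA form first described as an oestrogen-dependent subunit in breast epithelium, was 30.4% lower in siOct4-labelled libraries than in siNcor1 at day 6. Its log2-cpm was 4.96 and 4.72 in siNcor1 and 5.01 and 4.98 in siOct4-labelled libraries at day 3. At day 6 it was 5.23 and 5.02 in siNcor1 and 4.65 and 4.55 in siOct4-labelled libraries. Both siOct4-labelled libraries of day 6 were the lowest of the 8. The difference between knockdowns was −0.52 at day 6 (SE 0.14, adjusted p = 0.0168, interval −0.83 to −0.21) and 0.16 at day 3 (adjusted p = 0.818, interval −0.15 to 0.47), and the test of the difference between these days gave −0.68 (SE 0.20, adjusted p = 0.0330, interval −1.12 to −0.25). Between the days *Mta3* fell by 24.1% in siOct4-labelled libraries (log2 change −0.40, adjusted p = 0.0331, interval −0.71 to −0.088), while its value in siNcor1 was 0.29 with an interval from −0.024 to 0.60. Each of these 3 calls of *Mta3* depended on single libraries. The day 6 difference did not pass without replicate 1 (−0.41, adjusted p = 0.135) or replicate 2 (−0.63, adjusted p = 0.0512) of siNcor1 at day 6. The change in siOct4-labelled libraries did not pass without replicate 1 (−0.38, adjusted p = 0.124) or replicate 2 (−0.41, adjusted p = 0.107) of day 3, or without replicate 2 of day 6 (−0.35, adjusted p = 0.0817). The difference between the days did not pass without siNcor1 day 3 replicate 2 (−0.56, adjusted p = 0.146), without replicate 1 (−0.67, adjusted p = 0.087) or 2 (−0.70, adjusted p = 0.0932) labelled siOct4 at day 3, or without siNcor1 day 6 replicate 1 (−0.57, adjusted p = 0.128) or 2 (−0.79, adjusted p = 0.0619). Its direction was the same in all of these fits.

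The methyl-CpG-binding domain subunits showed no call in any comparison. *Mbd2* (ENSMUSG00000024513, mm10 chr18:70568189-70626131, plus strand) ranged from 5.77 to 5.99 over the 8 libraries, and its changes between the days were −0.019 in siNcor1 (interval −0.28 to 0.24) and 0.088 in siOct4-labelled libraries (interval −0.17 to 0.35). *Mbd3* (ENSMUSG00000035478, mm10 chr10:80392539-80399550, minus strand), the member most discussed as a reprogramming barrier, ranged from 6.47 to 6.92. It was 6.80 and 6.76 in siNcor1 and 6.92 and 6.74 in siOct4-labelled libraries at day 3, and 6.70 and 6.47 and then 6.71 and 6.55 at day 6. The libraries of day 6 were lower than those of day 3 in each knockdown, and the change was −0.20 in both (adjusted p = 0.254, interval −0.47 to 0.079 in siNcor1, and adjusted p = 0.197, interval −0.48 to 0.073 in siOct4-labelled libraries). Between the knockdowns *Mbd3* differed by 0.052 at day 3 (interval −0.22 to 0.33) and by 0.046 at day 6 (interval −0.23 to 0.32), and the difference between its day changes was −0.0061 (interval −0.40 to 0.39). These intervals leave room for differences of up to about 0.33 in either knockdown comparison, so equality was not shown.

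*Rbbp7*, which binds histone H4 and joins several histone-modifying complexes besides NuRD (ENSMUSG00000031353, mm10 chrX:162760402-162779092, plus strand), was the member whose replicates lay farthest apart. Its log2-cpm was 7.93 and 7.89 in siNcor1 and 7.76 and 7.57 in siOct4-labelled libraries at day 3, 7.62 and 7.73 in siNcor1 at day 6, and 7.02 and 7.66 in siOct4-labelled libraries at day 6. The gap of 0.64 in that last group compares with a median gap of 0.17 over the 10 members and 0.26 over all genes tested there. The difference between the knockdowns at day 6 was −0.33 (SE 0.18, adjusted p = 0.177, interval −0.71 to 0.054), and the change between the days was −0.24 in siNcor1 (adjusted p = 0.326) and −0.32 in siOct4-labelled libraries (adjusted p = 0.149). These values hung on the choice of replicate: without replicate 2 the day 6 difference was −0.65 (adjusted p = 0.0029) and the change in siOct4-labelled libraries −0.64 (adjusted p = 0.00131), both past the threshold. Without replicate 1 they were −0.0098 (adjusted p = 0.964) and 0.0016 (adjusted p = 0.993). *Rbbp7* shares 174 exon bases with other genes and has *Txlng* on the opposite strand.

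Among 5 further subunits *Hdac1* alone passed a test, in a single comparison. *Hdac1*, a catalytic deacetylase, had a log2-cpm of 6.12 and 5.97 at day 3 and 6.40 and 6.45 at day 6 in siOct4-labelled libraries, a rise of 29.9% (log2 change 0.38, adjusted p = 0.0213) that did not pass without replicate 2 of day 3 (0.30, adjusted p = 0.156). The call was also lost without the variance trend and with only the compared groups in the fit. In siNcor1 *Hdac1* was 6.30 and 6.36 and then 6.50 and 6.29 (0.065). *Hdac2*, the other deacetylase, ranged from 6.46 to 7.02 and *Rbbp4*, the paralogue of *Rbbp7*, from 7.45 to 7.89, and neither passed a test. *Cdk2ap1*, a small accessory subunit, ranged from 3.54 to 4.42, and *Chd5*, the neuronal remodeller, had only 5 to 28 reads in a library.

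Counted over the 10 members, 0 passed the test between the knockdowns at day 3, when 1.07% of all genes tested did (0.375% higher and 0.692% lower), and 1 was lower in siOct4-labelled libraries at day 6 (*Mta3*), when 18.6% of all genes were called lower and 12.1% higher. Between the days 4 fell in siNcor1 (*Chd3*, *Chd4*, *Gatad2b* and *Mta1*) beside 20.9% of all genes, and 4 fell in siOct4-labelled libraries (*Chd3*, *Chd4*, *Gatad2b* and *Mta3*) beside 30.5% of all genes. No member rose in any comparison, where the shares of all genes called higher were 13.8% in siNcor1 and 22.2% in siOct4-labelled libraries. The test of the difference between the day changes called *Mta3* among the 10, with a negative value, and 20.7% of all genes (7.77% with a positive and 12.9% with a negative value). *Chd3*, *Chd4* and *Gatad2b* were called in both knockdowns, and *Mbd2*, *Mbd3*, *Mta2*, *Gatad2a* and *Rbbp7* in no comparison. At day 3 limma called 148 genes, and 1460 genes had an unadjusted p under 0.05, but the smallest adjusted p among the members was 0.734.

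The median log2 change of the 10 members was −0.22 in siNcor1 and −0.30 in siOct4-labelled libraries, against −0.068 and −0.079 over all genes tested. The libraries of the 2 days did not overlap, with day 6 lower, for 8 of 10 members in siNcor1 and for 8 of 10 in siOct4-labelled libraries, and 41.7% and 42.1% of all genes showed the same. Between the knockdowns at day 3, both siOct4-labelled libraries lay above both of siNcor1 for 2 members (*Gatad2a* and *Mta3*) and below for 2 (*Gatad2b* and *Rbbp7*), beside 20.7% and 22.7% of all genes. At day 6 they lay below for 3 (*Chd3*, *Chd4* and *Mta3*), beside 34.8%, and above for 0, beside 29.9%. *Mta3* in siNcor1 was the only member whose day 6 libraries lay above those of day 3, as they did for 31.4% of all genes. The median absolute log2 difference between the knockdowns was 0.070 at day 3 and 0.19 at day 6 for the members, against 0.15 and 0.35 for all genes, and that between the days was 0.26 and 0.30 against 0.37 and 0.52. Single members exceeded those medians of all genes, among them *Chd3* in both day comparisons and *Mta3* between the knockdowns at day 6. The 2 day comparisons use different libraries, and each shares its day 3 and its day 6 libraries with the knockdown comparison of that day.

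**Figure D2:**
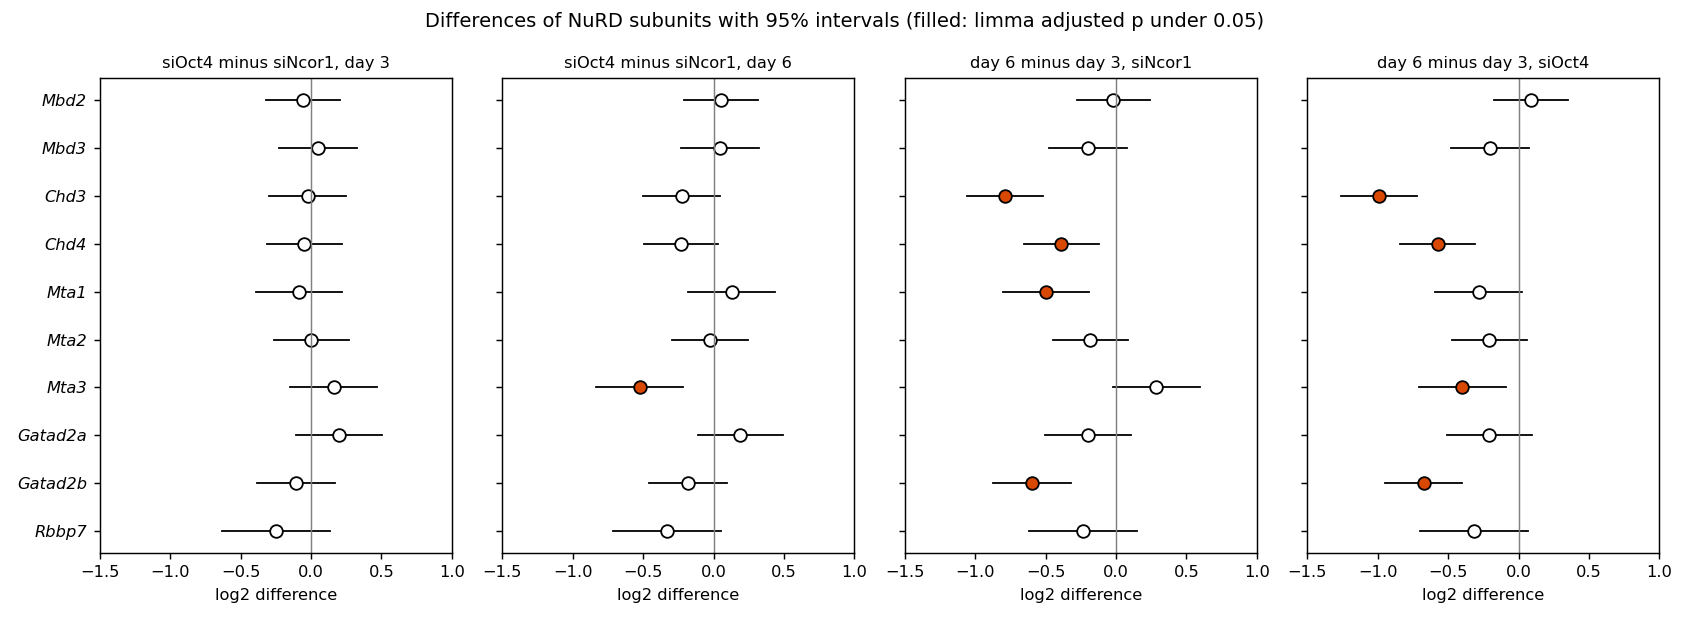
The log2 difference of each of the 10 subunits is plotted with its 95% interval in 4 comparisons, siOct4 minus siNcor1 at day 3 and at day 6 and day 6 minus day 3 in each knockdown, and a filled circle marks a limma adjusted p under 0.05. At day 3 all 10 intervals cross 0, at day 6 *Mta3* at −0.52 is filled, and between the days 4 circles are filled on the left of 0 in each knockdown, with *Chd3* farthest out at −0.79 and −0.99.

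Genes with longer exons were lower at day 6 over the whole transcriptome, and the members that fell include the 3 with the longest exons. Among protein-coding genes with summed exons of up to 1500 bases (n = 705) the median change was 0.42 in siNcor1 and 0.72 in siOct4-labelled libraries. Among those of 8000 to 12000 bases (n = 1647) it was −0.28 and −0.45, and 38.1% and 54.2% of them were called lower. *Gatad2b* (11443 bases), *Chd3* (8443 bases) and *Chd4* (8019 bases) belong to the latter class, and *Mta1* (3104 bases) to a class of 2500 to 4000 bases with medians of 0.012 and 0.049. After the trend with exon length was removed from every library, an alternative added after the values were seen, *Chd3* remained lower at −0.54 (adjusted p = 0.00494) and −0.62 (adjusted p = 0.000999), and *Mta1* in siNcor1 at −0.51 (adjusted p = 0.0148). *Chd4* at −0.15 (adjusted p = 0.354) and −0.22 (adjusted p = 0.14) and *Gatad2b* at −0.27 (adjusted p = 0.0687) and −0.18 (adjusted p = 0.167) no longer passed. *Mbd3* (1987 bases), whose class of length rose, was then called lower in both knockdowns, at −0.32 (adjusted p = 0.0467) and −0.47 (adjusted p = 0.0045). *Rbbp7* (2909 bases) was called lower in siOct4-labelled libraries at −0.41 (adjusted p = 0.047), where *Mta3* (5319 bases) lost its call at −0.22 (adjusted p = 0.219). *Mta3* was called higher in siNcor1 at 0.41 (adjusted p = 0.0472) and kept its difference between the knockdowns at day 6 at −0.45 (adjusted p = 0.029). In that fit 3 members were called lower and 1 higher in siNcor1 beside 14.9% of all genes lower and 15% higher, and 3 lower in siOct4-labelled libraries beside 24.1%. Between the knockdowns at day 3 the medians of the classes of length lay between −0.033 and −0.0044. At day 6 they ran from 0.27 for up to 1500 bases to −0.27 for more than 12000, with −0.185 for 8000 to 12000. With the trend removed, the day 6 differences of *Chd3* and *Chd4* between the knockdowns were −0.083 and −0.097. What set the trend was not tested.

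**Figure D3:**
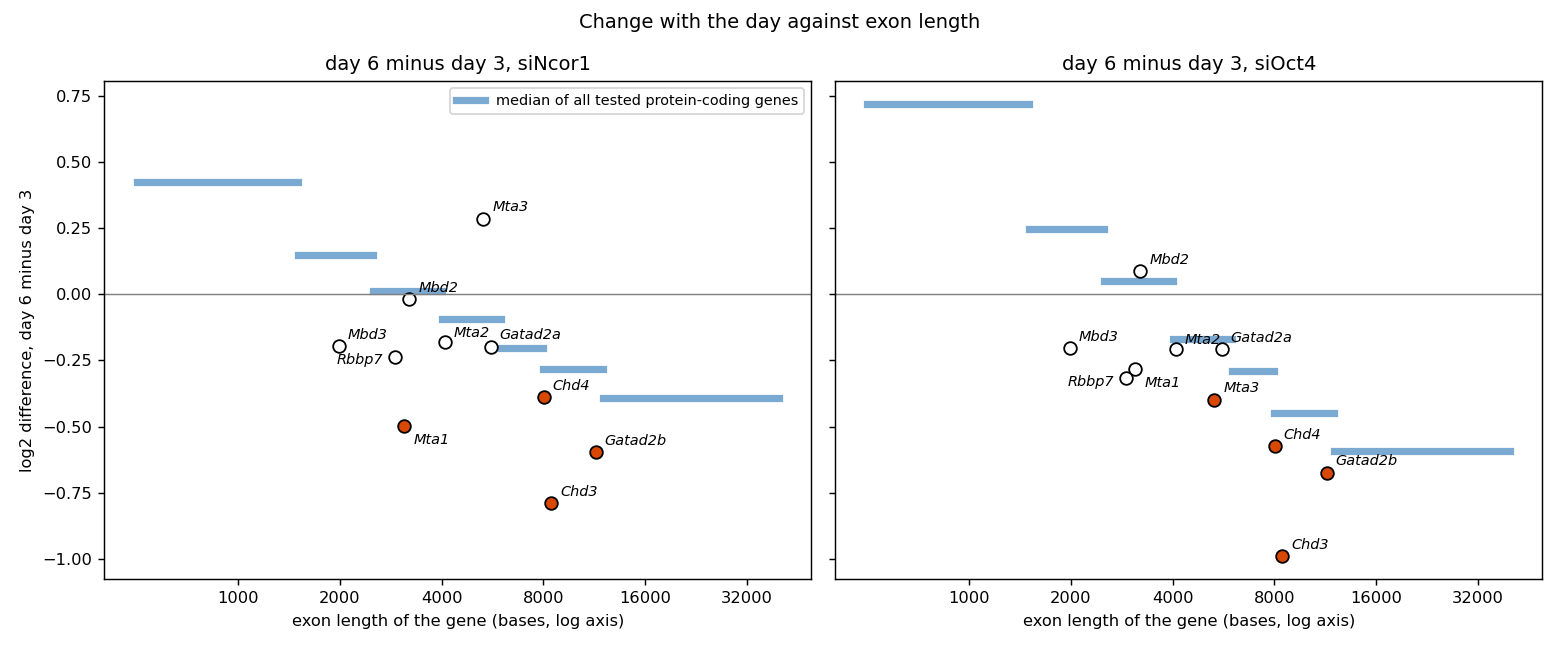
The log2 change from day 3 to day 6 of each subunit (circles, filled where the limma adjusted p is under 0.05) is plotted against the summed exon length of its gene on a log axis, with 1 panel per knockdown and horizontal bars at the median of all tested protein-coding genes in each class of length. The bars run from 0.42 down to −0.39 in siNcor1 and from 0.72 down to −0.59 in siOct4-labelled libraries, *Chd4* at −0.39 and −0.57 lies near bars at −0.28 and −0.45, and *Mta1* at −0.50 in siNcor1 lies below a bar at 0.012.

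A ratio of paralogues within a library does not depend on how libraries are scaled, and the ratio of the 2 remodellers was higher at day 6 than at day 3 in both knockdowns. The log2 ratio of *Chd4* to *Chd3* per kb was 0.031 and −0.058 in siNcor1 and 0.0073 and −0.082 in siOct4-labelled libraries at day 3. It was 0.41 and 0.36, and 0.41 and 0.35, at day 6. All 4 libraries of day 6 lay above all 4 of day 3, by 0.40 and 0.42 on average, and the exon lengths of the 2 genes are similar. The ratio of *Gatad2a* to *Gatad2b* rose by 0.40 in siNcor1 (from 1.67 and 1.65 to 2.21 and 1.91) and by 0.47 in siOct4-labelled libraries (from 2.01 and 1.93 to 2.78 and 2.09), without overlap in either. These 2 genes differ in exon length, 5589 against 11443 bases. At day 3 that ratio was 0.31 higher in siOct4-labelled libraries, without overlap. The ratio of *Mta3* to *Mta2* rose by 0.47 in siNcor1 and fell by 0.19 in siOct4-labelled libraries, and was 0.50 lower in the latter at day 6, each without overlap. *Rbbp7* relative to *Rbbp4* was 1.19 and 1.36 in siOct4-labelled libraries at day 6 and between 1.57 and 1.72 in the other 6 libraries. The ratios of *Mta1* to *Mta2* and of *Mbd3* to *Mbd2* were 0.31 and 0.18 lower at day 6 in siNcor1, without overlap, and overlapped between the days in siOct4-labelled libraries (−0.074 and −0.29). The ratios are given as values, and no test was run on them.

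**Figure D4:**
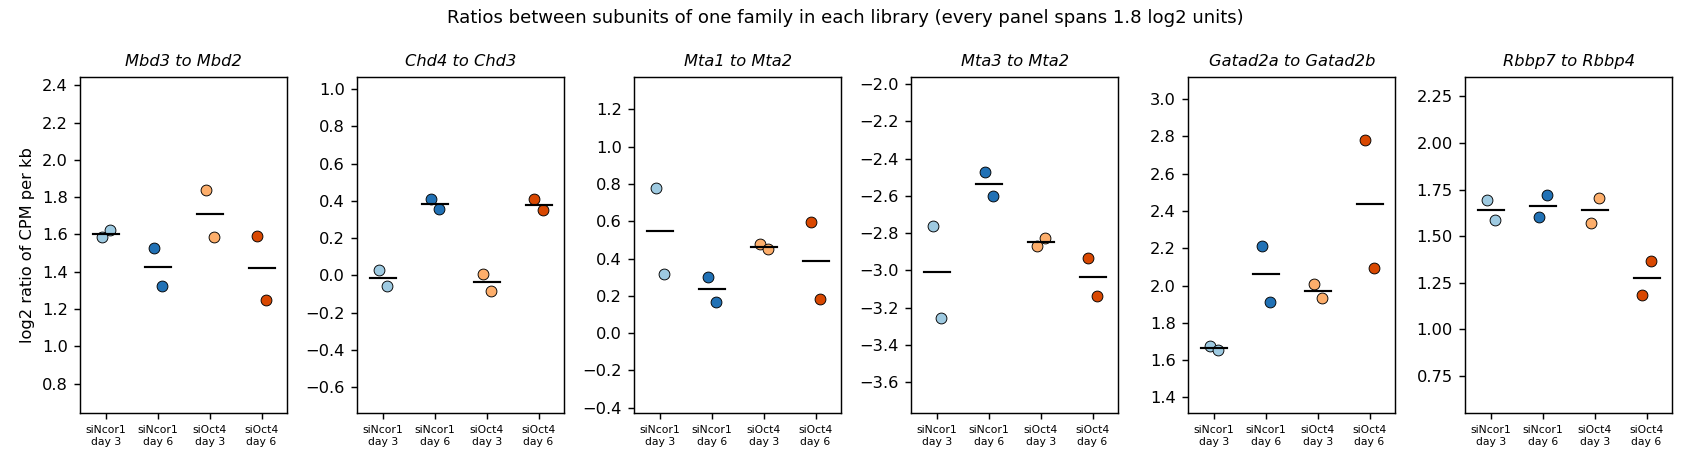
The log2 ratio of CPM per kb between paralogues is plotted for 6 pairs in the 8 libraries, with 1 point per library, a bar at the mean of each group of 2, and an axis of 1.8 log2 units in every panel. The ratio of *Chd4* to *Chd3* moves from about 0 at day 3 (means −0.014 and −0.037) to 0.38 at day 6 in both knockdowns, and that of *Rbbp7* to *Rbbp4* is lowest in the 2 libraries labelled siOct4 at day 6 (1.19 and 1.36).

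Factors that bind or recruit NuRD spread from −1.03 to 1.73 on the log2 scale between the knockdowns at day 6. Of 17 such genes 0 passed the test between the knockdowns at day 3. At day 6, 4 were higher and 4 lower in siOct4-labelled libraries (47.1% of the list, 30.7% of all genes), with a list median of −0.043 against −0.025 over all genes. *Bcl11a* and *Bcl11b*, zinc-finger repressors of blood, immune and neural lineages, were higher by 1.73 (SE 0.25, adjusted p = 7.50e-04) and 1.37 (SE 0.18, adjusted p = 4.99e-04). *Bcl11a* stood at a log2-cpm of 3.59 and 3.82 in siNcor1 at day 3, 2.06 and 1.66 in siNcor1 at day 6, 3.46 and 3.43 in siOct4-labelled libraries at day 3, and 3.97 and 3.22 there at day 6, so siNcor1 at day 6 was the low group. *Pwwp2b*, a PWWP-domain protein that binds NuRD components, was lower by 1.03 on the log2 scale (−1.03, SE 0.22, adjusted p = 0.0054). The calls of these 3 genes held under every alternative that was run. Those of the other 5 rested on single libraries. *Zfpm2* and *Ikzf1* also lost theirs with only the compared groups in the fit, and *Zfpm2* with the exon length trend removed. *Sall1* (−0.96, adjusted p = 0.00727) did not pass without siNcor1 day 6 replicate 1 (adjusted p = 0.051), nor did *Sall2* (−0.70, adjusted p = 0.00403) without siNcor1 day 6 replicate 2 (adjusted p = 0.0543). *Sall3* (1.2, adjusted p = 0.0126), with 15 to 69 reads, did not pass without replicate 1 of siNcor1 (adjusted p = 0.105) or replicate 1 labelled siOct4 (adjusted p = 0.0517) at day 6. *Zfpm2* (−0.96, adjusted p = 0.0225) did not pass without replicate 2 of siNcor1 (adjusted p = 0.182) or replicate 2 labelled siOct4 (adjusted p = 0.106) at day 6. *Ikzf1* (1.44, adjusted p = 0.0338) had only 5 to 27 reads and did not pass when any of siNcor1 day 3 replicates 1 and 2, siNcor1 day 6 replicates 1 and 2 and siOct4 day 6 replicate 1 was left out (adjusted p from 0.0528 to 0.185).

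Between the days, 4 of the 17 rose and 7 fell in siNcor1, beside 34.8% of all genes called, and 5 rose and 6 fell in siOct4-labelled libraries, beside 52.7%. The largest rise in both was that of *Sall4*, a pluripotency-associated zinc-finger protein whose N-terminal motif binds NuRD, and it is also on the list of early reprogramming markers below. It went from 2.68 and 2.83 to 5.13 and 5.11 in siNcor1 (log2 change 2.37, SE 0.43, adjusted p = 0.00162), and from 0.024 and 1.88 to 4.63 and 4.19 in siOct4-labelled libraries (3.46, adjusted p = 4.87e-05). All 4 libraries of day 6 were higher than all 4 of day 3. *Zfpm2*, a GATA cofactor, had a log2 change of −1.32 in siNcor1 (adjusted p = 0.00374), and its change in siOct4-labelled libraries was −2.52 (adjusted p = 2.16e-05). *Bcl11a* fell by 1.84 in siNcor1 (adjusted p = 2.93e-04), where its change in siOct4-labelled libraries was 0.15 (adjusted p = 0.632). *Zfp296*, a reprogramming-associated zinc-finger protein, rose by 1.86 in the latter (adjusted p = 1.51e-04). Among the 10 subunits the value farthest from 0 in any comparison was −0.99, that of *Chd3*. Whether the 2 lists differ was not tested.

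**Figure D5:**
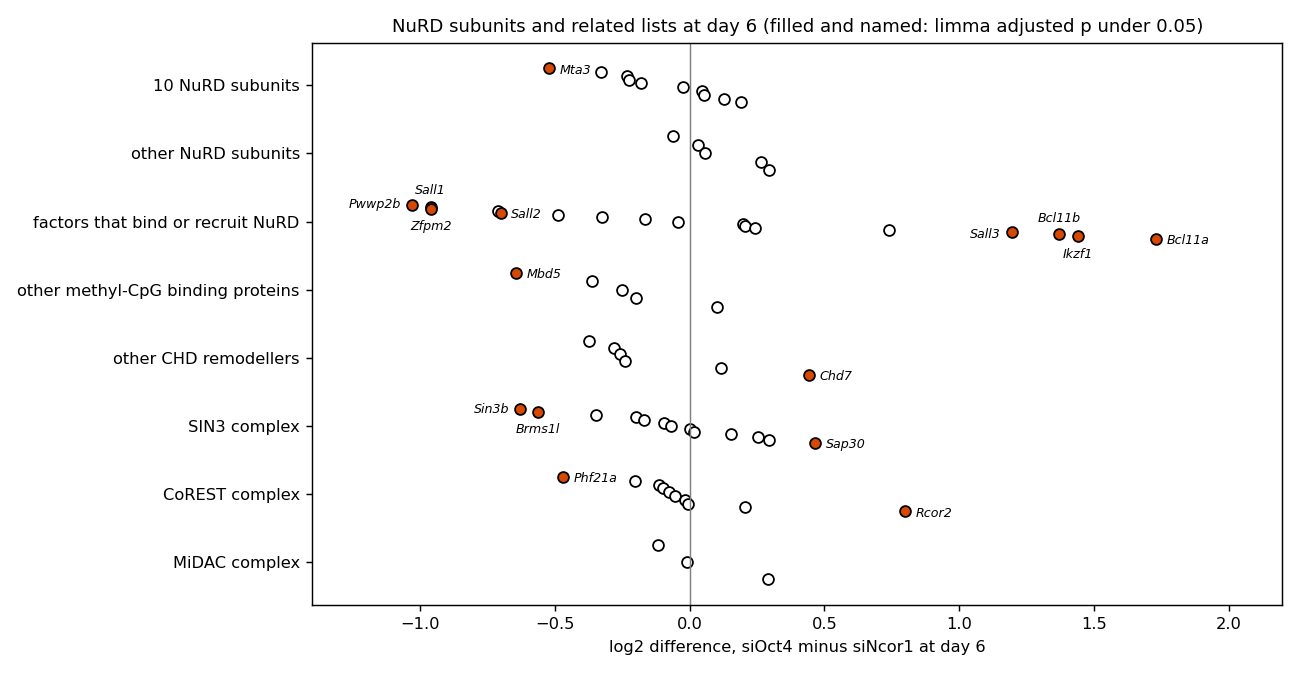
Each circle is a gene, its log2 difference at day 6 (siOct4 minus siNcor1) is on the x axis, and the rows are the 10 subunits and 7 related lists, with filled and named circles where the limma adjusted p is under 0.05. The 10 subunits lie between −0.52 and 0.19, and the 17 factors that bind or recruit NuRD spread from −1.03 (*Pwwp2b*) to 1.73 (*Bcl11a*).

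Relatives of the subunits outside NuRD were counted for comparison. Of 6 other CHD remodellers, *Chd1*, *Chd8* and *Chd9* fell between the days in siNcor1, beside 20.9% of all genes, and 5 fell in siOct4-labelled libraries (the same 3 with *Chd2* and *Chd6*), beside 30.5% of all genes. *Chd1*, which binds methylated histone H3 lysine 4 at active promoters, fell by 0.63 on the log2 scale in siNcor1 (adjusted p = 0.00241), a call that held under every alternative that was run. *Chd9* fell by 0.71 in siNcor1 (adjusted p = 8.99e-04) and 0.82 in siOct4-labelled libraries (adjusted p = 1.28e-04). With the exon length trend removed *Chd9* stood at −0.24 (adjusted p = 0.0984) and −0.092 (adjusted p = 0.482) and *Chd8* at −0.0039 (adjusted p = 0.982) and −0.14 (adjusted p = 0.285) in siNcor1 and in siOct4-labelled libraries, and the change of *Mbd5* in the latter at −0.14 (adjusted p = 0.384), all without a call. At day 6 *Chd7* was higher in siOct4-labelled libraries (0.44, adjusted p = 0.0437), a call lost without any of siNcor1 day 3 replicates 1 and 2, siNcor1 day 6 replicates 1 and 2 and siOct4 day 6 replicate 1 (adjusted p from 0.0645 to 0.216). Of 5 other methyl-CpG-binding proteins, *Zbtb33* fell in siNcor1 and 3 fell in siOct4-labelled libraries (*Mbd5*, *Zbtb33* and *Mbd1*). The call of *Chd8* in siNcor1 was lost without any of its 4 libraries (adjusted p from 0.0777 to 0.123), and that of *Zbtb33* without day 3 replicate 2 (adjusted p = 0.109) or day 6 replicate 1 (adjusted p = 0.124). In siOct4-labelled libraries *Chd2* did not pass without day 3 replicate 2 (adjusted p = 0.285) or day 6 replicate 1 (adjusted p = 0.0878), nor did *Zbtb33* without day 3 replicate 1 (adjusted p = 0.0554). *Mbd1* (−0.41) did not pass there without replicate 1 (adjusted p = 0.0943) or 2 (adjusted p = 0.0991) of day 3 or replicate 1 of day 6 (adjusted p = 0.123). *Mbd5* was lower there at day 6 (−0.65, adjusted p = 0.00561), a call lost without siNcor1 day 6 replicate 2 (−0.53, adjusted p = 0.0802). The day changes of *Chd2* and *Mbd1* in siOct4-labelled libraries also lost their calls with median centring, quantile normalization and totals without *Gm26917*. The same held with only the compared groups in the fit, for *Chd2* without the variance trend and for *Mbd1* with the exon length trend removed. *Chd7* at day 6 lost its call without the variance trend, without the filter and with only the compared groups. At day 6, 12.1% of all genes were called higher in siOct4-labelled libraries and 18.6% lower. Among complexes that also hold HDAC1 and HDAC2, the 13 genes of the SIN3 list gave 1 higher (*Sap30*) and 2 lower (*Sin3b* and *Brms1l*) at day 6, and the 10 of the CoREST list 1 higher (*Rcor2*) and 1 lower (*Phf21a*). Except for *Sin3b*, each of these calls was lost without siNcor1 day 6 replicate 2 (adjusted p from 0.0722 to 0.199) and without at least 1 more library. *Sin3b*, a SIN3 scaffold, rose by 0.86 between the days in siNcor1 (adjusted p = 1.93e-04) and was 0.63 lower in siOct4-labelled libraries at day 6 (−0.63, adjusted p = 0.00193), and both calls held under every alternative that was run. The MiDAC list gave 3 genes in the table (*Dnttip1*, *Elmsan1* and *Trerf1*), and 0 were called in any comparison.

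Markers of the cell types in the culture moved along with these comparisons. The summed level of 10 fibroblast markers, all 10 above 3 reads in every library, was 6812 to 6841 CPM in siNcor1 and 9575 to 11250 CPM in siOct4-labelled libraries at day 3, and 4755 to 5166 and 2650 to 2813 CPM at day 6. Collagens weigh most in that sum, and single markers did not all follow it. Between the days in siNcor1 6 of the 10 rose and 3 fell (median 0.71), beside 13.8% and 20.9% of all genes. In siOct4-labelled libraries 2 rose and 5 fell, beside 22.2% and 30.5% of all genes. Between the knockdowns at day 6, 8 of the 10 were called lower in siOct4-labelled libraries, beside 18.6% of all genes. Early epithelial or reprogramming markers, of which 9 of 10 passed the filter, summed to 87.3 to 89.8 CPM, 38.6 to 46.6 CPM, 687 to 721 CPM and 325 to 366 CPM in the same order of groups, and *Zfp42* was at 0 reads in both groups at day 3. Of these 9, 4 were called lower in siOct4-labelled libraries at day 3, beside 0.692% of all genes, and 4 at day 6, beside 18.6%. Between the days 7 of the 9 rose and 0 fell in each knockdown. The shares of all genes called higher were 13.8% in siNcor1 and 22.2% in siOct4-labelled libraries. Of 14 proliferation genes 9 fell in siNcor1 between the days (median −0.64), beside 20.9% of all genes. In siOct4-labelled libraries 4 rose and 4 fell, beside 22.2% and 30.5%, and 7 were higher than in siNcor1 at day 6 (median 0.42), beside 12.1%. Endothelial markers (1 of 5 past the filter) summed to at most 44.4 CPM and macrophage or leukocyte markers (4 of 6) to at most 14.7 CPM, whereas neural markers summed to 45.0 to 47.3 CPM in siNcor1 and 116 to 135 CPM in siOct4-labelled libraries at day 6. The part of these shifts in the values of the NuRD subunits was not tested.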

How the data were processed

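RNA was measured in 8 libraries, 2 for each knockdown and day. The authors aligned paired-end reads to mm10 with STAR 2.5.2b and deposited log2-cpm values made with edgeR 3.20.9. The counting tool and strand setting are not given in the sources used here. The deposited log2 values gave back whole reads (within 0.1 read for 100% of values, −2.87 standing for 0 reads), from which depths and CPM were derived. Intervals come from the limma fit. The limit of 3 reads covers counting error only.

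Groups were taken from the labels. Genes of a mean level of 1 CPM or more were fitted with limma 3.58.1 in R 4.3.3 (1 mean per group, all 4 groups together, trended variance, Benjamini-Hochberg adjustment over 13866 genes). The fit was also tried on simulated reads with the same spread in every group. That trial does not cover groups of unequal spread such as these. The authors' tests against control cells were not repeated. Coordinates and exon lengths came from GENCODE M21 (18969 genes matched by Ensembl identifier), and promoter windows from RefSeq. No window was used for *Mbd2*, *Chd3* or *Mta3*, and of the 7 used only 4 are printed. Figures were drawn with matplotlib 3.10.9.

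All 10 members were named with values, as were the other subunits and up to 3 called genes with the largest change per list and comparison. One gene of the lists was left out and is not reported here. Further genes of short counts were named after their values were seen. The members and lists were chosen with earlier results of these data known. Alternatives covered scaling, filter, pseudocount, variance model, voom on the recovered reads, samples in the fit, a replicate block and leaving out each library, and after the data were seen the exon length trend. P-values measure the spread between 2 biological replicates per group. Replicates of a group differed by more than sampling noise (chi-square per degree of freedom of 9.38 to 22.0).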

Additional observations from a re-analysis of the deposited data

Results flagged for a closer look

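The test of the difference between the day changes (limma, adjusted over all genes) passed for *Mta3* among the subunits, with a log2 value of −0.68 (adjusted p = 0.0330), negative because siOct4 minus siNcor1 went from 0.16 at day 3 to −0.52 at day 6. This call did not hold when any of 5 single libraries was left out, as given with *Mta3* in the report.

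Among the 17 factors that bind or recruit NuRD the same test passed for 8 genes (47.1%), beside 20.7% of all genes (7.77% positive and 12.9% negative). It was positive for *Ikzf1* at 2.17 (adjusted p = 0.0355), *Sall3* at 2.06 (adjusted p = 0.00748), *Bcl11a* at 2.00 (adjusted p = 0.0030), *Bcl11b* at 1.30 (adjusted p = 0.00523) and *Pwwp2a* at 0.61 (adjusted p = 0.0430). It was negative for *Pwwp2b* at −1.38 (adjusted p = 0.0109), *Zfpm2* at −1.20 (adjusted p = 0.0491) and *Sall2* at −0.73 (adjusted p = 0.0248). *Bcl11a* and *Bcl11b* passed under every alternative that was run. *Sall3* did not pass without siNcor1 day 3 replicate 2 (1.92, adjusted p = 0.0530), and *Pwwp2b* did not pass without siNcor1 day 3 replicate 2 (−1.17, adjusted p = 0.0671) or siOct4 day 3 replicate 2 (−1.18, adjusted p = 0.0551). *Sall2* did not pass without 4 of the single libraries, siNcor1 day 3 replicate 2, siOct4 day 3 replicate 2 and both of siNcor1 day 6 (−0.65, −0.68, −0.79 and −0.68). *Ikzf1* and *Pwwp2a* did not pass without 6 of the 8 single libraries, with values from 1.73 to 2.52 and from 0.48 to 0.68, and *Zfpm2* did not pass without 7 of the 8, with values from −1.42 to −0.81. The call of *Zfpm2* was also lost with median centring, quantile normalization and totals without *Gm26917*. It was lost as well without the variance trend, without the filter and with the exon length trend removed. That of *Pwwp2a* was also lost without the variance trend and without the filter. With 2 libraries per group no library could be checked for standing apart from its group.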

How the results depend on the processing

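The value of a member kept its direction and its side of the threshold in 543 of 590 fits with another setting, and a call was lost in 17. With 1 library left out, the direction turned in 31 of 400 fits. Most values had no call to lose, and some fits could not move a value. These were the replicate block and, for a comparison of groups, the omission of a library from a group outside it. *Chd3* and *Gatad2b* kept their calls in both knockdowns under every library omission. The number of all genes called at day 3 was 43 without the variance trend and 81 with a mean of at least 10 CPM, against 148, and 158 with voom on the recovered reads, which called 55.1% of them higher against 35.1%. Members called in siNcor1 between the days fell from 4 to 2 (*Chd3* and *Gatad2b*) with quantile normalization and without the variance trend, and the call of *Mta3* for the difference between the days was lost without the trend (0 members). In siOct4, library totals without *Gm26917* moved the share of calls that were higher from 42.1% to 52.5%, and in siNcor1 from 39.8% to 49.7%. *Chd4* in siNcor1 did not pass with median centring (adjusted p = 0.0528), quantile normalization (0.0707) or totals without *Gm26917* (0.0711), *Mta1* in siNcor1 not with quantile normalization (0.0852), and *Mta3* in siOct4 not with centring (0.0716), quantile normalization (0.105) or totals without *Gm26917* (0.134). The call of *Mta3* in siOct4 was also lost without the variance trend and with only the compared groups in the fit. *Mbd2* rose in siOct4 with quantile normalization (0.32, adjusted p = 0.0401). The cause of these losses was not tested.

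With 1 library left out, the number of all genes called ran from 3 to 375 at day 3, 1398 to 4669 at day 6, 2360 to 5954 in siNcor1, 5397 to 7374 in siOct4 and 1009 to 3667 for the difference between the days. The corresponding numbers of members were 0, 0 to 3, 2 to 4, 3 to 6 and 0 to 1. Signs turned for values that passed no test. Between the knockdowns at day 3 the ranges were −0.034 to 0.14 for *Mbd3*, −0.13 to 0.077 for *Chd3*, −0.11 to 0.0089 for *Chd4*, −0.19 to 0.021 for *Mta1* and −0.12 to 0.13 for *Mta2*. At day 6 they were −0.037 to 0.14 for *Mbd2*, −0.069 to 0.16 for *Mbd3*, −0.025 to 0.28 for *Mta1*, −0.079 to 0.029 for *Mta2* and −0.0021 to 0.38 for *Gatad2a*. Between the days they were −0.060 to 0.021 for *Mbd2* in siNcor1, and −0.00061 to 0.18 for *Mbd2* and −0.64 to 0.0016 for *Rbbp7* in siOct4. For the difference between the days they were −0.12 to 0.11 for *Mbd3*, −0.15 to 0.097 for *Mta2*, −0.20 to 0.18 for *Gatad2a*, −0.23 to 0.076 for *Gatad2b* and −0.40 to 0.24 for *Rbbp7*.

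Other settings turned the sign of 24 member values, none of them called in the reported fit. With median centring these were *Mta2* at day 6 (0.015), *Mbd2* in siNcor1 (0.023) and the difference between the days for *Mbd3* (0.023), *Mta2* (0.0028) and *Gatad2a* (0.021). With quantile normalization they were *Mta2* at day 3 (−0.019) and day 6 (0.015), *Mbd2* (0.14) and *Mbd3* (0.010) in siNcor1, *Mbd3* (0.062), *Mta2* (0.016) and *Gatad2a* (0.042) in siOct4, and the difference between the days for *Mbd3* (0.052), *Mta2* (0.034) and *Gatad2a* (0.079). With totals without *Gm26917* they were *Mta2* at day 3 (−0.040), *Mbd2* in siNcor1 (0.057) and the difference between the days for *Mbd3* (0.054), *Mta2* (0.033) and *Gatad2a* (0.051). With the exon length trend removed they were *Mbd3* (−0.081) and *Gatad2b* (0.011) at day 6 and the difference between the days for *Gatad2a* (0.055) and *Gatad2b* (0.089). Of 61 calls of listed genes 25 held under all alternatives, and *Chd2* (0.14) in siOct4 turned in sign with the exon length trend removed.

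The deviations of same-numbered libraries correlated between groups at −0.0395 to 0.281. Such values cannot tell whether the numbers pair the samples, and the reported fit took the libraries as unpaired. With a replicate block the numbers of all genes called were 222, 4698, 5218, 7570 and 3395 in the order above and those of members 0, 1, 4, 5 and 1, the added call being *Mta1* in siOct4 (adjusted p = 0.0461). The low depth of *Ikzf1* and *Chd5*, at most 28 reads, limits their values.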

Other observations

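Genes reported as restrained by MBD3-containing NuRD in embryonic stem cells went in different directions. *Tbx3*, a T-box factor, had a log2-cpm of 4.64 and 4.41 in siNcor1 and 4.84 and 5.01 in siOct4-labelled libraries at day 3, and 4.79 and 4.73 and then 3.90 and 3.61 at day 6. Both siOct4-labelled libraries of day 6 were the lowest of the 8, with a difference of −1.0 between the knockdowns (SE 0.16, adjusted p = 0.00117) and −1.4 for the difference of that value between day 6 and day 3 (adjusted p = 0.00191). *Klf4*, which the cassette also supplies, was higher in siOct4-labelled libraries at day 6, at 10.72 and 10.13 against 8.78 and 8.72 (1.67, adjusted p = 2.61e-04). All 4 cassette genes (*Pou5f1*, *Sox2*, *Klf4* and *Myc*) were called higher there, by 1.588 to 1.775 on the log2 scale, beside 12.1% of all genes. *Klf5*, a related Krüppel-like factor, ranged from 4.88 to 5.44 and passed no test, with −0.085 between the knockdowns at day 6 (adjusted p = 0.689). *Zfp42* had 0 to 3 reads and did not pass the filter. The calls of *Tbx3* and *Klf4* at day 6 held under every alternative that was run.

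The genes whose levels followed a subunit most closely, by the root mean square distance of log2 values over the 8 libraries after centring each gene, were *Spg7* (0.0321), *Ndufa8* (0.0450) and *Otub1* (0.0506) for *Mbd3*, where the median over all genes was 0.337. For *Chd4* they were *Usp42* (0.0465), *Pank1* (0.0481) and *Ext2* (0.05), with a median of 0.367. For *Rbbp7* they were *Mlh3* (0.0614), *Eda2r* (0.0645) and *Zfp110* (0.0660), with a median of 0.381. These are descriptions over 8 libraries that share their scaling.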
